A study of Mus musculus with 9 samples.

Results

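The Toll-like receptors are membrane proteins that recognise conserved molecules of microbes and products of damaged tissue. The genes described here are 9 receptors, Tlr1, Tlr2, Tlr3, Tlr4, Tlr6, Tlr7, Tlr8, Tlr9 and Tlr13, and Myd88, the adaptor that most of them share. They were taken by symbol from a table of 22183 genes, and all 10 were found once and were among the 14211 genes tested. The RNA came from mouse tibiae, was selected for poly(A) tails, and made up 9 libraries in 3 groups of 3. Naive tibiae were left untreated, Ti tibiae were given titanium particles, and Ti+I-OG tibiae received I-OG as well, an injectable natural-polymer gel that carries irisin, a hormone released by muscle. The particles model the wear debris that loosens implants, and the hydrogel-treated bones were collected after 5 weeks of treatment. The labels do not state strain, sex, age, the time for the other groups, or whether replicates were separate animals. The p-values therefore reflect only how far these libraries differ from one another, and part of that may be technical. Particles and the procedure that delivered them cannot be told apart, and neither can irisin and the gel that carried it, because no group here received the procedure, the gel or irisin alone.

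The receptors differ in where they sit and what they bind. Tlr2 pairs with Tlr1 or Tlr6 at the cell surface to recognise bacterial lipopeptides, and Tlr4 recognises lipopolysaccharide together with the co-receptors Cd14 and Ly96. Tlr3, Tlr7, Tlr8, Tlr9 and Tlr13 lie in endosomes and belong to the receptors for nucleic acids. Tlr3 recognises double-stranded RNA, Tlr7 single-stranded RNA, Tlr9 unmethylated CpG DNA, and Tlr13 bacterial ribosomal RNA. Myd88 links every receptor except Tlr3 to the kinases of the Irak family and to Traf6, and from there to NF-kappa B. In bone these receptors are mainly carried by marrow myeloid cells, including the monocytes from which osteoclasts form.

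The sequences of the closest pair of receptors are shown first, because they bear on how reads were counted. Tlr1 and Tlr6 lie next to each other in the RefSeq annotation of GRCm38.p6. Their coding sequences, read from GENCODE M21 transcripts, are 2388 and 2421 bases long and are identical at 79.7% of 2284 aligned bases. The longest identical run is 229 bases. The 120 bases from its middle, positions 1522 to 1641 of the Tlr1 and 1561 to 1680 of the Tlr6 coding sequence, have no mismatch:
Tlr1 and Tlr6: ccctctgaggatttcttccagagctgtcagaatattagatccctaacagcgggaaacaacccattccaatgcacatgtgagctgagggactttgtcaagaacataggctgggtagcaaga
A read from this stretch cannot be assigned to either gene by sequence. The least alike window of the same length, positions 232 to 351 of Tlr1 and 277 to 396 of Tlr6, has 49 mismatches, which are in capitals:
Tlr1: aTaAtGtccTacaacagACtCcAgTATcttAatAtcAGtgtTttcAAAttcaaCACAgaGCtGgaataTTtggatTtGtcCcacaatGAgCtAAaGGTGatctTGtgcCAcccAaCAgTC
Tlr6: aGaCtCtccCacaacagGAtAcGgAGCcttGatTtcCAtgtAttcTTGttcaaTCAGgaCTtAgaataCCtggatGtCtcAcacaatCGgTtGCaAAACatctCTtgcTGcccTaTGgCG
Of all stretches of 50 bases in the transcripts of each gene, 13.6% of those of Tlr1 and 12.3% of those of Tlr6 occur in the other gene. The deposited counts show this sharing directly. The count of Tlr1 was fractional in all 9 libraries, and the sum of Tlr1 and Tlr6 was whole, within 0.01 counts, in all 9. In naive replicate 1, for example, 421.23 counts of Tlr1 and 467.77 of Tlr6 made 889. The pair is therefore given below both as deposited and as its sum.

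Total counts ran from 16256082 to 24766516 per library. The defining markers of bone and marrow were present in every group. The 7 osteoblast and osteocyte genes summed to 784 to 1571 CPM (counts scaled to the library total after TMM normalisation) in naive, 2781 to 4256 in Ti and 1824 to 2920 in Ti+I-OG, and the 8 neutrophil genes to over 13400 CPM in every library. Globin and other erythroid genes were highest in Ti+I-OG, at 168662 to 183200 CPM against 29536 to 96116 in naive, and without globin and mitochondrial genes the members' calls came to the same numbers. In bulk tissue, fewer cells of a type and less RNA per cell cannot be told apart.

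Per transcript length, in FPKM (fragments scaled to transcript length and library total), Myd88 had the highest level of the 10 genes in every group and Tlr13 the highest of the receptors. In naive tibiae Myd88 averaged 57.3 FPKM, Tlr13 33.6 and Tlr2 15.0. The ranges of these 3 genes and Tlr4 did not overlap. Tlr4 at 11.9, Tlr8 at 10.7 and Tlr7 at 9.88 FPKM followed, with ranges that overlapped from each to the next. Tlr6 at 8.28 overlapped Tlr7, Tlr1 was at 5.39, and Tlr9 at 2.24 and Tlr3 at 1.26 FPKM were the lowest. Myd88, Tlr13 and Tlr2 led in Ti and in Ti+I-OG as well. At the foot of the order the places of Tlr3 and Tlr9 were exchanged in both, with overlapping ranges.

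**Figure D1:**
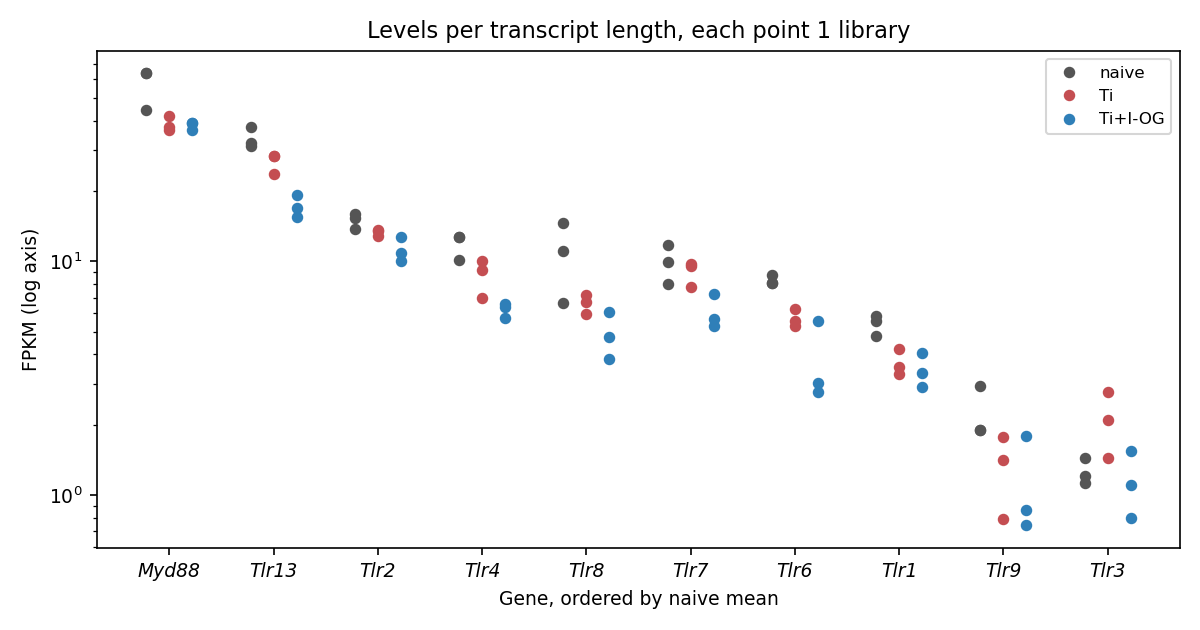
FPKM of the 10 genes (log axis), ordered by their naive mean, with each point 1 library and colours marking the 3 groups. Myd88 and Tlr13 lie above the other genes in every group, and Tlr9 and Tlr3 lie lowest.

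These FPKM levels rest on lengths that the authors' software estimated in each library. The length implied by count and FPKM was constant for Myd88, Tlr2, Tlr4, Tlr9 and Tlr13, where the highest exceeded the lowest by a ratio of at most 1.00144. It varied by a ratio of 2.26 for Tlr6, 2.01 for Tlr3 and 1.40 for Tlr8. In Ti+I-OG replicate 3 the implied length of Tlr6 was 1318 bases, against 2981 and 2707 in replicates 1 and 2. The FPKM of these 3 genes therefore carries a change of estimated length as well as of count, and comparisons between groups below use CPM.

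The first comparison asks what titanium particles did to the receptors relative to untreated bone. Of the 10 genes, Tlr6 fell and 9 did not pass an adjusted p of 0.05 in edgeR's quasi-likelihood test, while 6.43% of all tested genes passed, 2.39% lower and 4.05% higher. At an unadjusted p under 0.05, 5 members passed, as did 26.9% of all genes. Log2 fold changes were negative for 9 genes and positive for Tlr3, with a median of −0.43 against 0.01 over all genes. All 3 Ti libraries were below all 3 naive libraries for 5 of the 10, Tlr1, Tlr6, Tlr9, Tlr13 and Myd88, where 12.9% of all genes had Ti wholly below naive. No member had Ti wholly above naive, where 14.3% of all genes did.

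Hydrogel-treated tibiae differed from untreated ones in more of the receptors. Tlr4, Tlr6, Tlr8 and Tlr13 fell and 6 genes did not pass, where 4.43% of all genes fell, 3.84% rose and 8.26% passed in either direction. At an unadjusted p under 0.05, 8 members passed, as did 29.8% of all genes. The median of the 10 was −0.61 against 0.03 over all genes. Ti+I-OG lay wholly below naive for Tlr1, Tlr4, Tlr6, Tlr8 and Tlr13, as did 16.9% of all genes, and wholly above it for none, against 18.7% of all genes. No label pairs the samples. In this comparison same-numbered samples were taken as paired, because all 3 correlations of their deviations from the group means exceeded 0.1 (0.150 to 0.335). The values reported for it nevertheless come from the fit without pairing, and results with the replicate as a block are given beside them. With the replicate as a block 5 members passed, Tlr9 in addition (log2 fold change −0.86, adjusted p = 0.0222), and 3450 genes in place of 1174. Without Ti+I-OG replicate 2 no member passed and 59 genes did. This comparison shares its naive libraries with the first, so the results of both are set side by side only.

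The third comparison asks what the hydrogel added to particles alone. None of the 10 genes passed edgeR's test, where 6 of 14211 genes (0.0422%) did, all of them higher. DESeq2, limma-voom and limma-trend on FPKM also called no member. Same-numbered samples were taken as paired here too (correlations of 0.123 to 0.270), while the values given come from the fit without pairing. With the replicate as a block no member passed either. Of the 10, 4 had an unadjusted p under 0.05, Tlr4, Tlr7, Tlr8 and Tlr13, against 7.84% of all genes, and all 4 were lower in Ti+I-OG. The libraries did not overlap for Tlr8 and Tlr13, where 6.71% of all genes had Ti+I-OG wholly below Ti, and no member lay wholly above, against 7.75%.

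**Figure D2:**
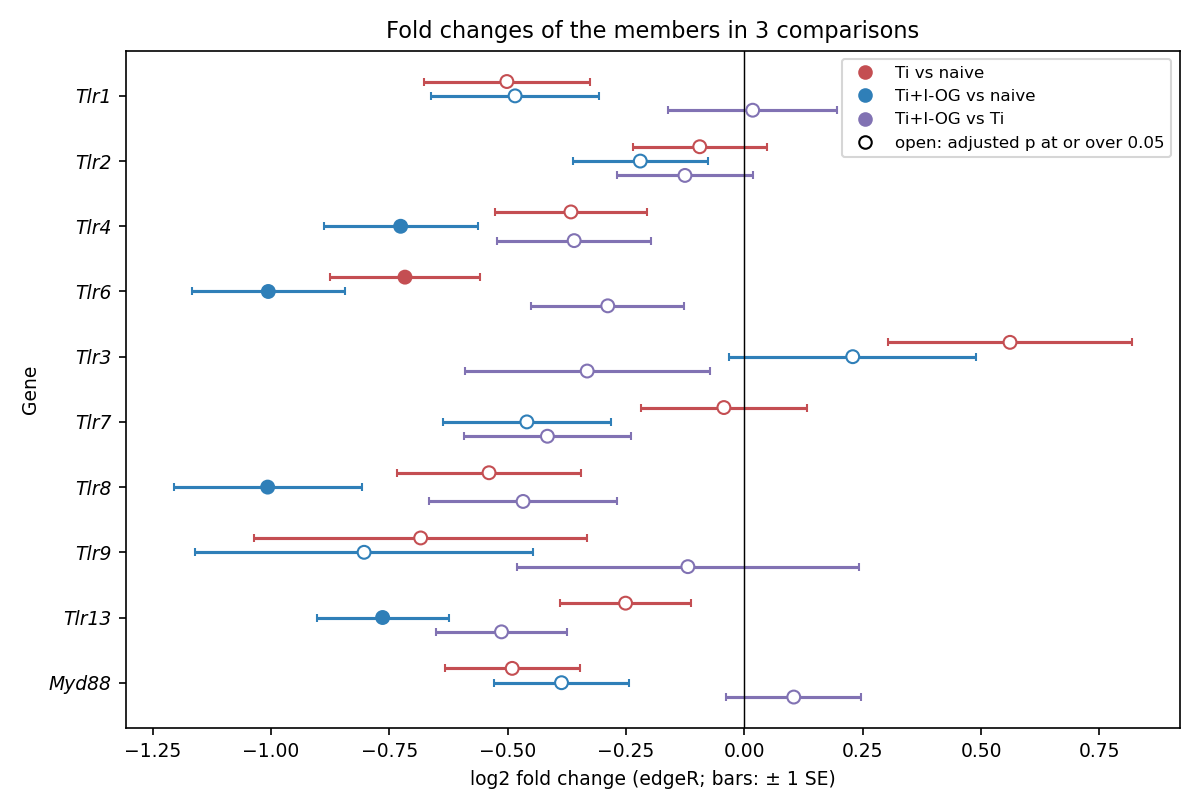
Log2 fold changes from edgeR (x axis, bars ± 1 SE) of the 10 genes in the 3 comparisons, with filled points where the adjusted p is under 0.05. Tlr6 is filled in Ti vs naive, and Tlr4, Tlr6, Tlr8 and Tlr13 in Ti+I-OG vs naive, all on the negative side.

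Among the surface receptors, Tlr2 (ENSMUSG00000027995), the shared partner of Tlr1 and Tlr6, varied least with the groups. It was at 45.4, 44.4 and 37.9 CPM in naive replicates 1 to 3, 40.8, 38.5 and 40.3 in Ti, and 35.7, 42.9 and 31.1 in Ti+I-OG. All 3 groups overlapped. Its log2 fold change was −0.09 (SE 0.142, adjusted p = 0.695) in Ti vs naive and −0.22 (SE 0.143, adjusted p = 0.319) in Ti+I-OG vs naive.

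Tlr6 (ENSMUSG00000051498) was at 17.8, 16.1 and 17.7 CPM in naive, 9.58, 11.2 and 10.6 in Ti, and 9.82, 8.31 and 7.54 in Ti+I-OG. Every library given particles lay below every naive library. It fell by 0.72 on the log2 scale in Ti (SE 0.159, adjusted p = 0.0258) and by 1.01 in Ti+I-OG (SE 0.161, adjusted p = 0.0106), a fold of 0.498. The call in Ti vs naive was lost without naive replicate 1 or 3 or Ti replicate 1 or 2 (adjusted p = 0.0727, 0.0790, 0.0996 and 0.0804), in a fit of those groups alone (0.0524) and on FPKM (0.167 with a pseudocount of 1). That in Ti+I-OG vs naive was lost without Ti+I-OG replicate 2 (adjusted p = 0.0610).

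Tlr1 (ENSMUSG00000044827), its neighbour, was at 15.99, 13.5 and 14.8 CPM in naive, 9.21, 12.0 and 10.04 in Ti, and 12.5, 9.41 and 9.69 in Ti+I-OG. Its naive libraries were the highest, but neither log2 fold change against naive passed (−0.50 in Ti, SE 0.176, adjusted p = 0.103, and −0.48 in Ti+I-OG, SE 0.177, adjusted p = 0.0965). In limma-trend on FPKM that in Ti+I-OG passed (−0.53, adjusted p = 0.0477 with a pseudocount of 1).

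The sum of the pair does not depend on how shared reads were divided. It was at 33.8, 29.6 and 32.5 CPM in naive, 18.8, 23.2 and 20.6 in Ti, and 22.3, 17.7 and 17.2 in Ti+I-OG, so no library given particles reached the lowest naive one. The sum fell by 0.61 on the log2 scale in Ti (SE 0.149, adjusted p = 0.0355) and by 0.74 in Ti+I-OG (SE 0.150, adjusted p = 0.0236), and was at −0.13 in Ti+I-OG vs Ti (SE 0.151, adjusted p = 0.842). The share assigned to Tlr6 was 52.6, 54.4 and 54.6% in naive, 51.0, 48.2 and 51.4% in Ti, and 44.1, 47.0 and 43.7% in Ti+I-OG. Its 3 ranges did not overlap, and the share was not tested, since it is an estimate of the authors' software.

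**Figure D3:**
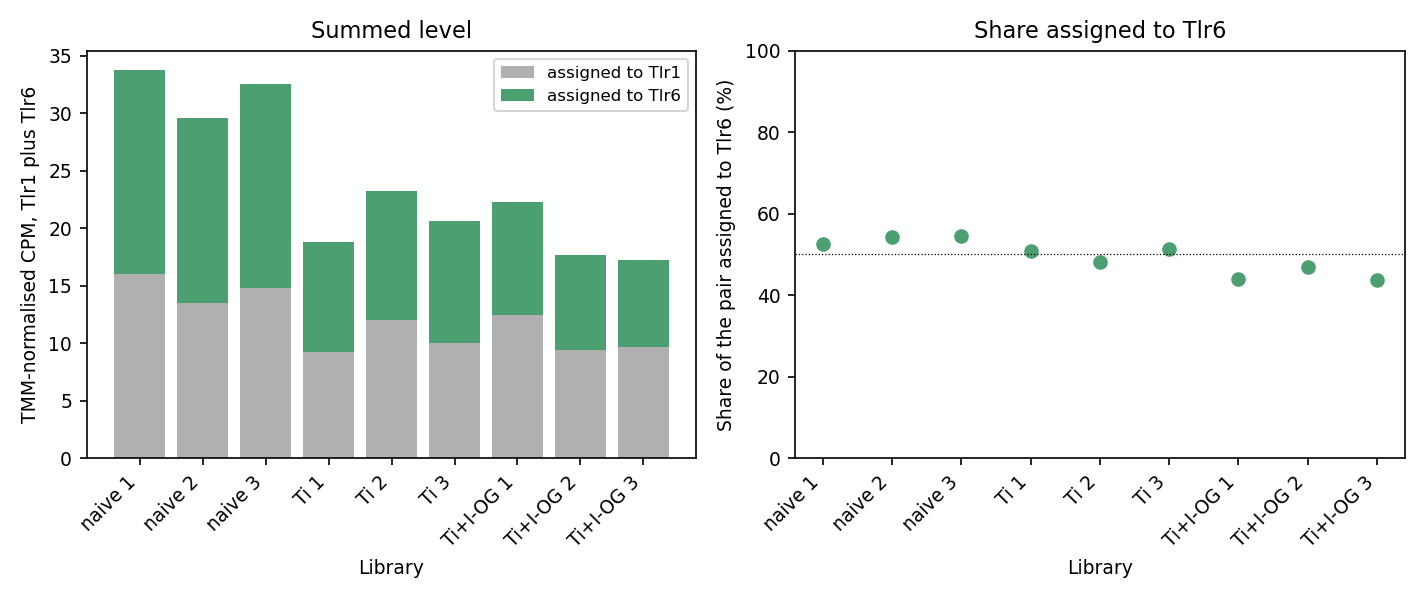
Left, summed CPM of Tlr1 and Tlr6 in each library, divided by the gene the reads were assigned to. Right, the percentage assigned to Tlr6: sums are 29.6 to 33.8 CPM in naive and at most 23.2 elsewhere, and the share lies above 50% in naive and below it in Ti+I-OG.

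Tlr4 (ENSMUSG00000039005) was at 48.6, 40.0 and 47.4 CPM in naive, 36.9, 40.5 and 28.02 in Ti, and 28.3, 29.9 and 24.0 in Ti+I-OG. The Ti libraries overlapped both other groups, while Ti+I-OG lay wholly below naive. It fell by 0.73 on the log2 scale in Ti+I-OG vs naive (SE 0.163, adjusted p = 0.0288) and was at −0.37 in Ti vs naive (SE 0.161, adjusted p = 0.169). When 1 library was dropped, the call held in 1 of 6 fits, that without naive replicate 2 (adjusted p = 0.0185), and was lost in the others (adjusted p up to 0.0963). Its co-receptors did not pass. Mean CPM of Cd14, which hands lipopolysaccharide to the receptor, was 9.07 for naive, 9.14 for Ti and 8.01 for Ti+I-OG. Ly96, which binds the lipid, ran from 1.84 to 5.93 CPM in naive, 4.997 to 6.28 in Ti and 3.12 to 6.46 in Ti+I-OG.

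Among the endosomal receptors, Tlr13 (ENSMUSG00000033777) had the highest count and the most even order. It was at 119, 125 and 139 CPM in naive, 114, 113 and 95.2 in Ti, and 84.8, 77.0 and 64.1 in Ti+I-OG. The 3 groups did not overlap at all, with naive highest and Ti+I-OG lowest, an order found in 110 of 14211 genes (0.774%) and in no other member. Tlr13 fell by 0.76 on the log2 scale in Ti+I-OG vs naive (SE 0.140, adjusted p = 0.0171), which was lost without Ti+I-OG replicate 2 (adjusted p = 0.0769). It was at −0.25 in Ti vs naive (SE 0.138, adjusted p = 0.265) and at −0.51 in Ti+I-OG vs Ti (SE 0.139, unadjusted p = 0.00326, adjusted p = 0.628).

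Tlr8 (ENSMUSG00000040522) was at 19.1, 29.0 and 31.0 CPM in naive, 20.7, 18.8 and 14.8 in Ti, and 12.99, 12.4 and 13.8 in Ti+I-OG. Ti+I-OG lay wholly below both other groups, and naive replicate 1 lay within the range of Ti. It fell by 1.01 on the log2 scale in Ti+I-OG vs naive (SE 0.199, adjusted p = 0.0212), a call lost without naive replicate 3 (adjusted p = 0.0679) and without Ti+I-OG replicate 1 or 2 (0.0650 and 0.101). It was at −0.54 in Ti vs naive (SE 0.195, adjusted p = 0.112) and −0.47 in Ti+I-OG vs Ti (SE 0.199, adjusted p = 0.630).

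Tlr7 (ENSMUSG00000044583), which lies beside Tlr8 in the RefSeq annotation, was at 28.2, 34.1 and 40.2 CPM in naive, 36.6, 34.0 and 28.8 in Ti, and 30.0, 22.3 and 22.1 in Ti+I-OG. All 3 groups overlapped one another in part. Its log2 fold changes were −0.04 in Ti vs naive (SE 0.175, adjusted p = 0.897), −0.46 in Ti+I-OG vs naive (SE 0.177, adjusted p = 0.110) and −0.42 in Ti+I-OG vs Ti (SE 0.177, adjusted p = 0.630). In limma-trend on FPKM, Ti+I-OG vs naive passed (−0.61, adjusted p = 0.0445 with a pseudocount of 1).

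Tlr9 (ENSMUSG00000045322) was at 6.19, 6.35 and 9.34 CPM in naive, 4.86, 2.72 and 6.07 in Ti, and 3.27, 2.88 and 6.35 in Ti+I-OG. Replicate 3 was the highest library of each group. With the spread this leaves, −0.68 in Ti vs naive (SE 0.352, adjusted p = 0.233) and −0.80 in Ti+I-OG vs naive (SE 0.356, adjusted p = 0.155) did not pass. With the replicate as a block, −0.86 in Ti+I-OG vs naive passed (adjusted p = 0.0222), where samples were taken as paired. So did −0.72 in Ti vs naive (adjusted p = 0.0456), though the samples of that comparison were not taken as paired.

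Tlr3 (ENSMUSG00000031639) was the only member with higher means in both groups given particles. It was at 3.15, 4.53 and 3.44 CPM in naive, 5.57, 6.76 and 4.02 in Ti, and 4.91, 3.64 and 4.42 in Ti+I-OG. The groups overlapped, and neither 0.56 in Ti vs naive (SE 0.257, adjusted p = 0.187) nor 0.23 in Ti+I-OG vs naive (SE 0.261, adjusted p = 0.582) passed. On FPKM the latter was −0.08 with a pseudocount of 1. An antisense gene, Gm45542, overlaps its exons and holds 5.30% of its 50-base stretches, and the library kit did not mark the strand, so the values of Tlr3 are uncertain. Gm45542 was not analysed here.

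Myd88 (ENSMUSG00000032508) was at 117, 84.2 and 114 CPM in naive, 70.6, 72.9 and 81.3 in Ti, and 77.9, 85.7 and 78.0 in Ti+I-OG. All Ti libraries lay below naive, by a narrow gap to naive replicate 2, and 1 Ti+I-OG library lay above that replicate. Its log2 fold change was −0.49 in Ti vs naive (SE 0.143, unadjusted p = 0.00506, adjusted p = 0.0619), −0.39 in Ti+I-OG vs naive (SE 0.143, adjusted p = 0.0993) and 0.10 in Ti+I-OG vs Ti (SE 0.143, adjusted p = 0.869). In Ti vs naive it passed without naive replicate 2 (−0.63, adjusted p = 0.0199) and without Ti replicate 3 (−0.55, adjusted p = 0.0438). It also passed there with DESeq2 (−0.50, adjusted p = 0.0188) and with the replicate as a block (−0.49, adjusted p = 0.0253). In Ti+I-OG vs naive it passed without naive replicate 2 (−0.52, adjusted p = 0.0262). It passed there too in limma-trend on FPKM (−0.56, adjusted p = 0.0358 with a pseudocount of 1), where the median of all genes was −0.12. The start of Myd88 overlaps an exon of Acaa1a, a peroxisomal thiolase gene on the other strand, with 7.42% of its 50-base stretches shared. Mean CPM of Acaa1a (± SD, n = 3) was 37.1 ± 3.82 for naive, 39.4 ± 8.11 for Ti and 40.3 ± 7.38 for Ti+I-OG, and it did not pass in any comparison.

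**Figure D4:**
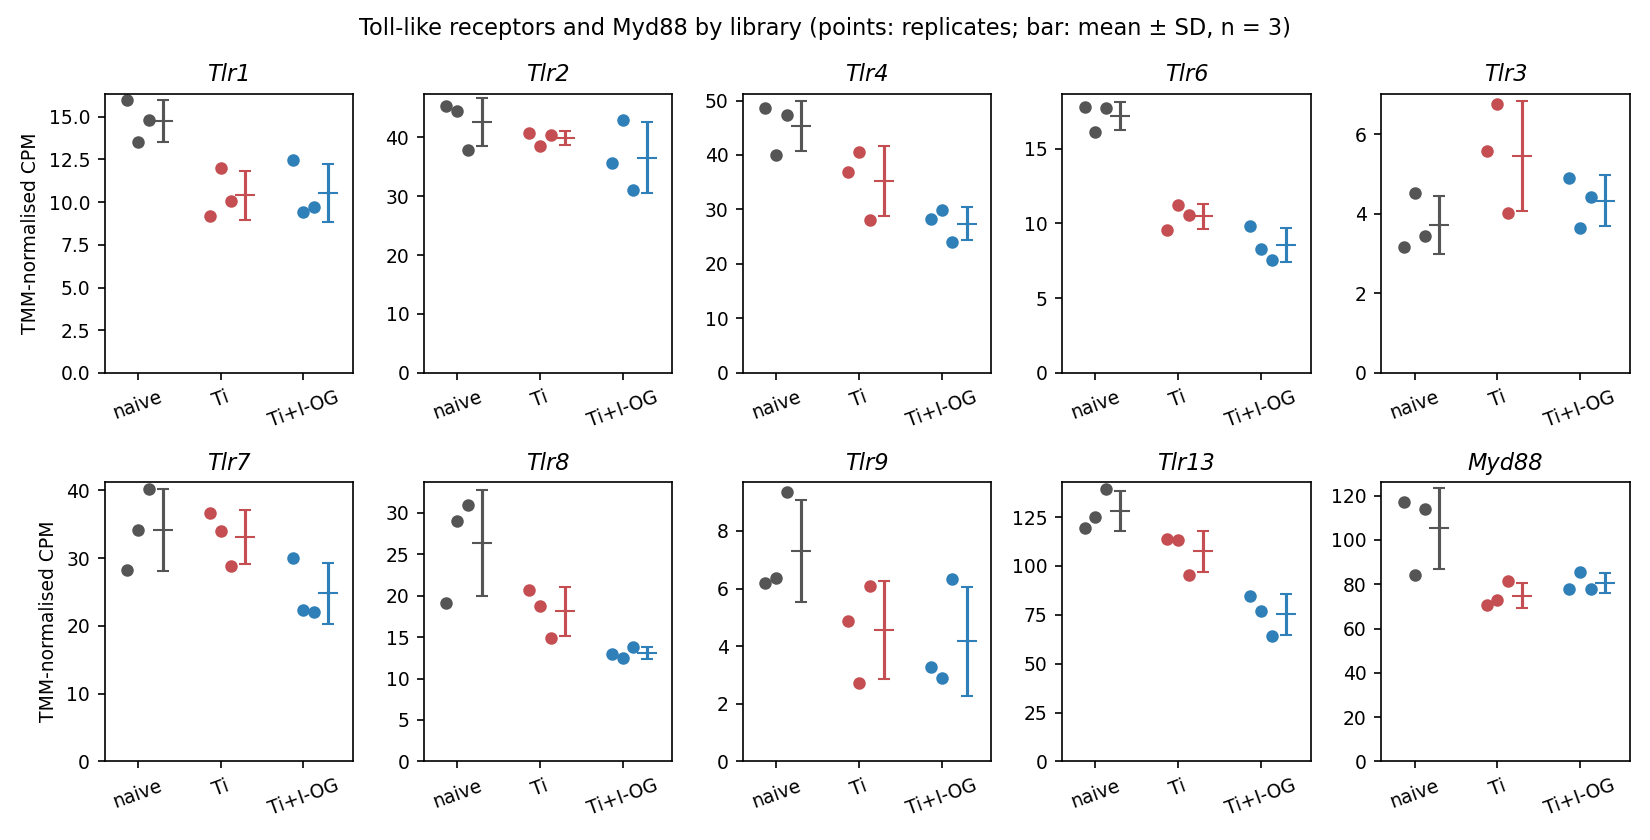
TMM-normalised CPM of each gene by library (y axes from 0, points are replicates 1 to 3 from left to right, bars mean ± SD, n = 3). Tlr13 steps down from naive (119 to 139) to Ti (95.2 to 114) and Ti+I-OG (64.1 to 84.8), Tlr6 is lower in both groups given particles, and Tlr2 overlaps across groups.

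Levels of the members moved together only in part. Over the 9 libraries, which share depth, composition and group, Pearson correlations of log2 CPM among the 45 pairs of members had a median of 0.538. They ran from −0.838 between Tlr3 and Myd88 to 0.917 between Tlr4 and Tlr13, and after each group's mean was taken out the median was 0.141. Among 10838 other genes with at least 5 CPM on average, the highest correlations over the 9 libraries with Myd88 were those of Dennd3 (0.981), Slc25a45 (0.975), Fdps (0.967) and Bak1 (0.964). For Tlr4 they were Adipor2 (0.974), Cdc37l1 (0.964), Slc35a5 (0.963) and Gnai3 (0.957). For Tlr9 they were Tut4 (0.986), Smarcc1 (0.983), Dhx9 (0.982) and Itga6 (0.981), and for Tlr2 Agpat5 (0.930), A530064D06Rik (0.907), Trim21 (0.890) and 9830107B12Rik (0.879).

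Markers of the cells that carry these receptors are given beside their levels. The 8 macrophage and monocyte genes summed to 1093 to 1550 CPM in naive, 1201 to 1338 in Ti and 1069 to 1237 in Ti+I-OG, with overlapping ranges. Of these, Cd68, a lysosomal protein of macrophages, rose in both groups given particles (0.58 in Ti, adjusted p = 0.0207, and 0.52 in Ti+I-OG, adjusted p = 0.0296), Cd163 fell in Ti (−0.81, adjusted p = 0.0430), and the other markers did not pass. The 8 neutrophil genes summed to 17121 to 23748 CPM in naive, 13400 to 21437 in Ti and 14114 to 16836 in Ti+I-OG. Among them Cxcr2, a chemokine receptor of mature neutrophils, fell by 0.54 in Ti (adjusted p = 0.0447) and by 0.96 in Ti+I-OG (adjusted p = 0.00732). The other 7 did not pass in either comparison (list medians −0.28 and −0.54), and Ly6g and Camp were above 0 in both. The 7 genes of the B lineage, which carries Tlr9, summed to 121 to 334 CPM in naive, 349 to 394 in Ti and 323 to 366 in Ti+I-OG, and the 6 of plasmacytoid dendritic cells, which carry Tlr7 and Tlr9, to 58.0 to 72.0, 64.5 to 82.6 and 73.9 to 83.6 CPM. None of these 13 genes passed, and none of the markers in these 4 lists was at 0 throughout. Some markers of other cell types differed between the groups as well. In Ti vs naive 4 of 5 osteoclast genes rose (list median 1.39, summed CPM 1269 to 2022 in naive and 2664 to 3120 in Ti), as did 6 of 7 osteoblast and osteocyte genes (median 1.32). Of 4 mast cell genes 3 rose (list median 2.82), Mcpt4, a mast cell protease, by 3.07 (adjusted p = 0.0183). Those 3, Mcpt4, Tpsb2 and Cma1, averaged only 0.285, 0.163 and 0.367 CPM in naive. Cpa3, the most abundant of the 4, did not pass (−0.09, adjusted p = 0.880, means of 36.1 CPM in naive and 33.9 in Ti). The summed mast cell genes overlapped (19.9 to 52.1 CPM in naive, 33.2 to 44.9 in Ti). Of 5 skeletal muscle genes Mylpf, a myosin light chain, rose (1.75, adjusted p = 0.0389, list median 1.38) and 4 did not pass. The libraries of Mylpf overlapped between Ti and naive. Of 7 conventional dendritic cell genes Cd209a rose (0.998, adjusted p = 0.0299), from a mean of 2.89 to 5.76 CPM. The other 6 did not pass (list median 0.29), with Flt3 and Clec9a below 0, and the summed genes overlapped (50.2 to 57.6 CPM in naive, 55.0 to 59.3 in Ti). In Ti+I-OG vs naive the numbers that rose were 4 of 5, 3 of 7, 3 of 4, 1 of 5 and 1 of 7 in the same lists, and 5 of 7 erythroid genes. No T, NK or endothelial cell gene passed in any comparison. The part of cell numbers in the receptors' levels was not tested.

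The other genes of the pathway were counted by role, in lists of 76 genes of which 70 were tested. In Ti vs naive 4 of the 70 rose and 3 fell, against 4.05% and 2.39% of all genes, and their median was −0.15 against 0.01. In Ti+I-OG vs naive 1 rose and 9 fell, against 3.84% and 4.43% of all genes, and their median was −0.15 against 0.03. With the replicate as a block 5 rose and 16 fell there, with DESeq2 3 and 14, on FPKM 0 and 14, and in a fit of those groups alone 0 and 5. In Ti+I-OG vs Ti none passed. The counts changed when 1 library was dropped, as did the calls over all genes (59 to 2127 in place of 1174 in Ti+I-OG vs naive). When naive replicate 1, 2 or 3 was dropped from that comparison, 2, 12 or 2 genes fell. When Ti+I-OG replicate 1, 2 or 3 was dropped, 2, 1 or 3 fell. In Ti vs naive 1, 7 and 1 fell without the same naive libraries and 1, 1 and 5 without Ti replicates 1, 2 and 3, while 3, 5 and 3 and then 1, 1 and 5 rose.

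**Figure D5:**
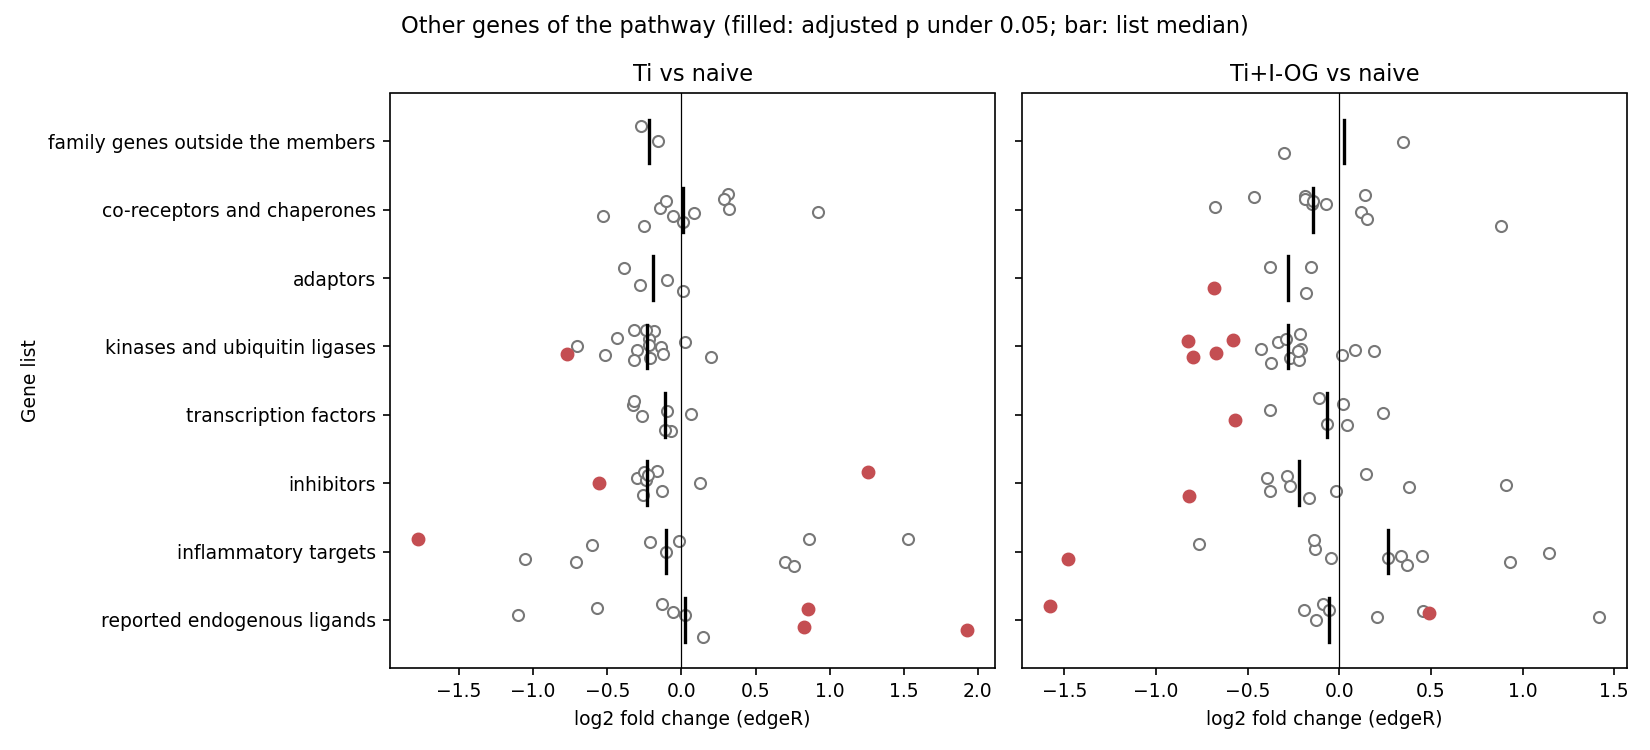
Log2 fold changes of the 70 tested pathway genes by role, for Ti vs naive (left) and Ti+I-OG vs naive (right), with filled points at an adjusted p under 0.05 and bars at list medians. Filled points of adaptors, kinases and transcription factors all lie on the negative side, and those of endogenous ligands lie on both.

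Of the Toll-like receptors outside the 10, Tlr5, the flagellin receptor, averaged 4.78, 4.27 and 3.88 CPM in naive, Ti and Ti+I-OG and Tlr12 2.27, 1.89 and 2.88 CPM, and neither passed. Tlr11 had 2 to 16 counts per library and was not tested. None of 11 co-receptors and chaperones passed in any comparison in the edgeR fit of all 9 libraries. Unc93b1, which carries the endosomal receptors to their compartment, was at −0.14 in Ti and −0.19 in Ti+I-OG against naive. Hsp90b1, the chaperone that folds the receptors, was at −0.46 in Ti+I-OG (adjusted p = 0.0726). It passed with DESeq2 (adjusted p = 0.0151), in limma-trend on FPKM (0.0258 with a pseudocount of 1) and with the replicate as a block (0.0369). When 1 library was dropped it passed in 0 of 6 fits. Cd36, a scavenger receptor, was at 0.92 in Ti (adjusted p = 0.0886). That passed with DESeq2 (adjusted p = 0.0273), with the replicate as a block (0.0175) and in 2 of 6 fits when 1 library was dropped. The smallest p-values of these lists in Ti+I-OG vs Ti were those of Tlr12 (0.62, adjusted p = 0.692) and of Cd180, a receptor homologue of B cells (−0.44, adjusted p = 0.628), and neither passed.

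Downstream of the receptors, 5 of 20 adaptors, kinases and ubiquitin ligases fell in Ti+I-OG vs naive and 15 did not pass, where 4.43% of all genes fell. Of 4 adaptors tested (median −0.28) Tirap, which brings Myd88 to Tlr2 and Tlr4, fell by 0.68 (SE 0.143, adjusted p = 0.0250). It was at 46.0, 42.1 and 52.6 CPM in naive, 37.8, 34.2 and 35.6 in Ti and 33.4, 29.1 and 25.2 in Ti+I-OG, with no overlap between any groups. Ticam1, the adaptor of Tlr3, was at −0.38 (adjusted p = 0.257). Of 16 kinases and ubiquitin ligases (median −0.28) 4 fell and 12 did not pass, Irak2, Tab1 and Tab3 among them with fold changes above 0. Irak4, the first kinase bound by Myd88, fell by 0.67 (adjusted p = 0.0330), from 40.3, 35.4 and 48.1 CPM to 25.4, 25.5 and 26.7. Traf6, the ubiquitin ligase next in the chain, fell by 0.58 (adjusted p = 0.0451) and Traf3, which directs signals to interferon genes, by 0.80 (adjusted p = 0.0356). The remaining call, Ikbke, a kinase of the interferon branch, was named after its values were seen (−0.82, adjusted p = 0.0458). In Ti vs naive Traf3 alone of the 16 fell (−0.77, adjusted p = 0.0399, passing in 2 of 6 fits when 1 library was dropped), and Tirap was at −0.39 (adjusted p = 0.115). The smallest p-values among them in Ti+I-OG vs Ti were those of Tirap (−0.29, adjusted p = 0.636) and Ikbkg (−0.21, adjusted p = 0.658), and neither passed. When 1 library was dropped from Ti+I-OG vs naive, Tirap and Traf3 passed in 2 of 6 fits and Irak4 and Traf6 in 1 of 6.

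Of 7 transcription factors (median −0.07) Rel, an NF-kappa B subunit, fell in Ti+I-OG vs naive (−0.57, adjusted p = 0.0475, still passing in 1 of the 6 leave-one-out fits), and Nfkb1, Rela, Irf3, Irf5, Irf7 and Irf8 did not pass. Rel was at −0.32 in Ti vs naive (adjusted p = 0.207) and Irf3 at 0.30 in Ti+I-OG vs Ti (adjusted p = 0.630). Of 10 inhibitors 1 rose and 1 fell in Ti vs naive (4.05% and 2.39% of all genes) and 1 fell in Ti+I-OG vs naive (4.43%). Trim30a, a negative regulator of the pathway, was at 98.7, 76.7 and 91.8 CPM in naive, 67.7, 56.3 and 57.9 in Ti, and 45.9, 51.9 and 53.5 in Ti+I-OG. The 3 groups did not overlap, and it fell by 0.56 in Ti (adjusted p = 0.0360) and by 0.82 in Ti+I-OG (adjusted p = 0.0121). When 1 library was dropped, the former held in 2 of 6 fits (without naive replicate 2 or Ti replicate 3, adjusted p otherwise up to 0.151), and the latter in 4 of 6, lost without Ti+I-OG replicate 1 or 2 (0.0507 and 0.0643). Atf3, a repressor of inflammatory genes, rose by 1.26 in Ti (adjusted p = 0.0490), a call that held only without naive replicate 2 or Ti replicate 3 of the 6 libraries dropped in turn (adjusted p otherwise up to 0.216). Trim30a counts were fractional in most libraries, and with which genes its reads could be shared was not tested.

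Of 11 inflammatory targets tested, Acod1, which makes itaconate in activated macrophages, fell in both comparisons with naive. It was at 12.6, 11.7 and 11.8 CPM in naive, 3.82, 3.34 and 3.33 in Ti and 4.66, 4.19 and 4.02 in Ti+I-OG, and both calls held whichever library was dropped (6 of 6 fits each, with a highest adjusted p of 0.0170 in Ti and 0.0249 in Ti+I-OG). Its log2 fold changes were −1.78 in Ti (SE 0.179, adjusted p = 0.00166) and −1.48 in Ti+I-OG (SE 0.178, adjusted p = 0.00270). No other target passed. The list median was −0.10 in Ti vs naive and 0.27 in Ti+I-OG vs naive, against 0.01 and 0.03 over all genes. In Ti vs naive Ptgs2 (1.53, adjusted p = 0.165), Ccl4 (0.86, 0.188), Ccl3 (0.76, 0.219) and Cxcl2 (0.70, 0.505) were above 0. Tnf, Il1b, Il6, Il12a, Cxcl10 and Nos2 were below 0 in that comparison. Tnf ran from 2.85 to 4.59 CPM in naive, 1.61 to 3.83 in Ti and 2.49 to 4.36 in Ti+I-OG, and Il1b from 16.9 to 98.3 CPM in naive, 38.8 to 55.0 in Ti and 41.6 to 54.1 in Ti+I-OG. Among 9 genes whose products have been reported to engage Tlr2 or Tlr4 from within the tissue, the matrix genes Tnc (0.86, adjusted p = 0.00827), Bgn (0.83, adjusted p = 0.0167) and Dcn (1.93, adjusted p = 0.0286) rose in Ti vs naive, where 4.05% of all genes did. Tnc held whichever library was dropped, while Bgn and Dcn were lost without Ti replicate 1 or 2 (adjusted p = 0.0702 and 0.0765 for Bgn, 0.0990 and 0.119 for Dcn). In Ti+I-OG vs naive Tnc rose (0.49, adjusted p = 0.0475) and Vcan fell (−1.58, adjusted p = 0.0458). Vcan was at 120 CPM in naive replicate 3 and at 51.2 and 27.6 in the other naive libraries, and its groups overlapped. Without naive replicate 3 its fold change was −0.83 (adjusted p = 0.159). Both calls held only without naive replicate 2 when libraries were dropped in turn (adjusted p otherwise up to 0.182 for Tnc and 0.159 for Vcan).

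Promoter sequence was available from RefSeq (GRCm38.p6) for 8 of the 10 members, as 250 bases before to 50 after each start. The promoters of Tlr13 and Tlr8 are shown because both genes had Ti+I-OG wholly below Ti and below naive. Capitals mark matches, on either strand, to the PU.1 core GAGGAA and to the C/EBP motif TTGCNNAA, which are bound by factors of myeloid cells.
Tlr13, chrX:106143025-106143324, plus strand: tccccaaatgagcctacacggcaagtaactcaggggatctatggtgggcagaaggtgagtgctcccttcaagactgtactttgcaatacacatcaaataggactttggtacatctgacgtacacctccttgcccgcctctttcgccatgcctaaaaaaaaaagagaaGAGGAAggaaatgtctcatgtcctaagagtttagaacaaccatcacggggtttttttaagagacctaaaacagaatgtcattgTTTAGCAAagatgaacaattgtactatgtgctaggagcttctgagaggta
Tlr8, chrX:167264280-167264579, minus strand: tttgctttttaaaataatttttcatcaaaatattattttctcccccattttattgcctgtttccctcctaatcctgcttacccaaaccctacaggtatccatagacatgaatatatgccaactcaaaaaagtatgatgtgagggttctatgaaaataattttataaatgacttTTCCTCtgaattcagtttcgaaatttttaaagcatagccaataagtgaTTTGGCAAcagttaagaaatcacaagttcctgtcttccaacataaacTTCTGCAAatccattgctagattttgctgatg
The 8 members had 10 promoters, since Tlr1 and Tlr6 had more than 1, and a promoter of each of these genes held no match. Counts here are of members with a match in any promoter, while percentages are shares of promoters. The PU.1 core occurred in promoters of 4 members, Tlr1, Tlr8, Tlr9 and Tlr13, and in 28.3% of 32851 promoters of this length. The C/EBP letters occurred in 4, Tlr3, Tlr6, Tlr8 and Tlr13, and in 10.8% of all. The interferon-stimulated response element occurred in Myd88 and, as overlapping matches, in Tlr6 and in 3.44% of all. NF-kappa B motifs occurred in Tlr2 and Tlr3 and in 8.46% of all, and the AP-1 motif TGANTCA in Tlr9 and in 7.81%. A match describes these letters alone.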

How the data were processed

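Per the file headers, the authors deposited for every gene and library an estimated count (not always whole) and FPKM, fragments scaled to transcript length and library total. The submitters' processing notes list edgeR, DESeq2, RSEM, StringTie 1.3.1 and fastp with no order. Aligner, build and annotation: not given in the sources used here. Titles gave the groups and replicates. No pair of replicates was a copy (chi-square over its degrees of freedom was 12.9 to 132).

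Rounded estimated counts went into 1 edgeR 4.0.16 fit of all 9 libraries (R 4.3.3, TMM, filterByExpr, two-sided quasi-likelihood test), tested on simulated data first. P-values were adjusted by Benjamini-Hochberg across 14211 genes, with a threshold of 0.05. Each SE is the absolute log2 fold change over the square root of F. Alternatives used DESeq2 1.42.0 size factors and test, limma 3.58.1 (voom, and trend on log2 of FPKM plus a pseudocount), no filter, 2 groups alone, a replicate block, no globin or mitochondrial genes, and each library left out. The labels do not say whether replicate numbers pair samples. Same-numbered samples were taken as paired where all 3 correlations of deviations from group means exceeded 0.1. That held for Ti+I-OG vs naive (0.150 to 0.335) and Ti+I-OG vs Ti (0.123 to 0.270), not for Ti vs naive (lowest −0.0095, highest 0.387).

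Members and lists were chosen with earlier results of these data known. By rule, all members were named, and of each other list up to 3 genes that passed with the smallest p, or else 1 that did not pass. Cd14, Ly96, Unc93b1, Ticam1, Tnf, Il1b, Irak2, Tab1, Tab3 and Ikbke were named outside this rule after their values were seen. So were Ptgs2, Ccl3, Ccl4, Cxcl2, Il6, Il12a, Cxcl10, Nos2, Ly6g, Camp, Flt3 and Clec9a. For 4 members, the 4 most correlated genes were added. GENCODE M21 gave transcript sequences and overlaps, aligned with Biopython 1.88.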

Additional observations from a re-analysis of the deposited data

How the results depend on the processing

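Each choice was changed alone. Over the members' fold changes 409 alternative values kept direction and side of the threshold, 13 newly passed, 17 no longer passed and 14 changed sign, none of these passing. Members called in Ti vs naive, 1 as reported, numbered 2 with DESeq2, 0 on FPKM with either pseudocount (1 or 0.1), 0 in a fit of 2 groups and 0 to 2 with a library left out. Genes called there, 914 as reported, numbered 1859, 556 and 544, 359, and 100 to 1998. Samples of that comparison were not taken as paired (4 of 6 correlated best with their own number), and the replicate block gave 3 members (Tlr6, Tlr9 and Myd88) and 2968 genes. No alternative in Ti+I-OG vs Ti called a member, and the 6 genes became 16 with DESeq2 and 0 to 5 with a library left out. In Ti+I-OG vs naive the 4 members became 7 on FPKM with either pseudocount (Tlr1, Tlr7 and Myd88 in addition) and 0 to 5 with a library left out. The 1174 genes became 2440 with DESeq2, 1787 and 1853 on FPKM, 775 in a fit of 2 groups, 3450 with the replicate block and 59 to 2127 with a library left out. The block changed no other member's call in the comparisons taken as paired. FPKM moved the median of all genes in Ti+I-OG vs naive to −0.12 and −0.16, from 0.03, and that in Ti+I-OG vs Ti to −0.08 and −0.11. Signs changed for Tlr7 in Ti vs naive with a library left out (−0.17 to 0.091, positive without naive replicate 3 or Ti replicate 3). In Ti+I-OG vs Ti they changed for Tlr1 on FPKM (−0.081 and −0.10) and with a library left out (−0.12 to 0.13), for Tlr9 with a library left out (−0.56 to 0.14) and for Myd88 on FPKM (−0.0147 and −0.0150). Tlr3 changed sign in Ti+I-OG vs naive on FPKM (−0.085 and −0.16). The cause was not tested. Summing Tlr1 and Tlr6 was chosen after seeing the data.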
